A study of Homo sapiens with 6 samples.

Results

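Long non-coding RNAs that carry small nucleolar RNAs (snoRNAs) in their introns were followed in 2 human colorectal cancer (CRC) cell lines. They are 10 genes, chosen by symbol: SNHG1, SNHG5, SNHG6, SNHG7, SNHG8, SNHG12, SNHG15, SNHG16, GAS5 and ZFAS1. All 10 were found, each as 1 of the 58302 genes of the deposited expression table, and all 10 passed the filter on low values, an Input level of at least 1 FPKM (fragments per kilobase, scaled by the depth of the library) in both labels, as did 12324 genes in all. The lines, SW480 and DLD-1, are wild type by their labels, were not treated, and are established lines of epithelial tumour cells. By the labels each line had 1 Input library of total RNA. Each also had 1 library pulled down through the enzyme NAT10 by an antibody to it (RIP-seq). A further 1 was pulled down by an antibody to the modified base N4-acetylcytidine (acRIP-seq). The question was which transcripts NAT10 binds and which carry the mark ac4C. As no group was replicated, the differences below are between single libraries, no p-value was computed, and the spread between cultures is unknown.

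A snoRNA host gene is transcribed by RNA polymerase II, and its snoRNAs are cut out of the spliced introns and go to the nucleolus, where they guide the modification of ribosomal RNA. In the hosts described here the spliced exons encode no well-characterised protein. Such exons are often exported, engaged by ribosomes and broken down by nonsense-mediated decay, which keeps the level of the spliced RNA low in growing cells. Many hosts start with a cytidine and a run of pyrimidines, the 5′ terminal oligopyrimidine (TOP) signature that they share with ribosomal protein mRNAs. NAT10 is the enzyme that forms ac4C in human cells, and its work on the ribosomal RNA of the small subunit is guided by snoRNAs.

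The start sites are shown first, since they are a sequence feature that the choice of genes did not use. RefSeq start-site sequences on GRCh38.p14 were found for 8 of the 10 genes, and SNHG6 and SNHG15 were not matched. Each line below runs 5′ to 3′ on the strand of the gene over 60 bases, 40 before the first transcribed base and 20 from it on. Capitals mark the letters TATAA where they lie 40 to 16 bases before the first base, and the pyrimidine run from the first base where it begins with C and is at least 3 bases long.
SNHG1: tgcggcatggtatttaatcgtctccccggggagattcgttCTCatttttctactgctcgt
SNHG5: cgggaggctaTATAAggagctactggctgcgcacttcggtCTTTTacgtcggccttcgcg
SNHG7: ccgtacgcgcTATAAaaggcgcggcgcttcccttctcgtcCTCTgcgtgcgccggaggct
SNHG8: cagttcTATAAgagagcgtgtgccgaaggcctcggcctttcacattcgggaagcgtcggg
SNHG12: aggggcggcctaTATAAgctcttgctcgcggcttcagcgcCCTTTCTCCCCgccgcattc
SNHG16: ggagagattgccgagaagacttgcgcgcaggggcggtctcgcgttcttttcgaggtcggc
GAS5: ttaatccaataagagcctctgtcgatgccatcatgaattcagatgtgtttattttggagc
ZFAS1: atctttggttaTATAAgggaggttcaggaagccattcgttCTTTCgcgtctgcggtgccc

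In this order they lie at chr11:62855866-62855925 (minus strand), chr6:85678714-85678773 (minus), chr9:136728165-136728224 (minus), chr4:118278722-118278781 (plus), chr1:28581854-28581913 (minus), chr17:76557724-76557783 (plus), chr1:173869026-173869085 (minus) and chr20:49278602-49278661 (plus). TATAA stood in the window of 5 of these 8 genes, SNHG5, SNHG7, SNHG8, SNHG12 and ZFAS1, and in that of 3.91% of the 35116 promoters of the table. Counting both strands, with TTATA as the reverse complement and overlaps allowed, the share was again 5 of 8 against 4.72% of all promoters. A C followed by at least 2 pyrimidines from the first base was found in SNHG1, SNHG5, SNHG7, SNHG12 and ZFAS1, 5 of 8, against 7.50% of all promoters. The run was 11 bases long in SNHG12, 5 in SNHG5 and in ZFAS1, 4 in SNHG7 and 3 in SNHG1. The motifs were picked after the sequences had been seen, and a start annotated elsewhere, by a few bases or by more, would hide such a run. The printed starts of SNHG12 and ZFAS1 lie inside the RefSeq spans of these genes. For SNHG8, SNHG16 and GAS5 the lack of a run holds for the printed start only.

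The libraries of the RIP table held 13498777 to 29628966 reads as implied by the steps of their values. The hosts together took 0.122% (SW480 label) and 0.127% (DLD-1 label) of all FPKM in RIP and 0.0677% and 0.0645% in Input. The RIP libraries did not pair with the Inputs of their own label. On log2(FPKM + 1) of 16196 protein-coding genes, Pearson's r of the RIP library with the Input of its own label was 0.871 (SW480) and 0.856 (DLD-1), and with the opposite Input it was 0.944 and 0.951, values that share genes and libraries. The labels are therefore used as names of libraries throughout, and the ratios of RIP over Input are given with either Input as the base. Of 7 epithelial markers, 6 or 7 were at or above 1 FPKM in each Input and RIP library, and of 7 markers of blood, vessel and stromal cells at most 1 was, with a summed level of 0.384 to 2.23 FPKM in both tables and CD3E and HBB at 0 throughout.

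The hosts spanned a wide range of levels, and the order was much alike in the 4 libraries. The scale is FPKM, which is per length, and the intervals on the plot of host levels by library cover counting error only. In such bulk libraries fewer cells holding an RNA and less RNA per cell cannot be told apart. GAS5, the growth arrest specific gene known to build up when growth stops, led both RIP libraries, and SNHG8 led both Inputs. GAS5 stood at 142 FPKM in the RIP library and 93.9 in the Input labelled SW480, and at 175 in the RIP library and 65.1 in the Input labelled DLD-1. It was higher in both RIP libraries than in either Input. SNHG8, the host of an H/ACA snoRNA, was at 95.1 and 97.7 FPKM in RIP and Input under the SW480 label and at 130.3 and 107 under the DLD-1 label, a narrow range. SNHG5, the host of the U50 snoRNAs, was at 90.1 and 65.0 FPKM under the SW480 label and at 64.4 and 94.2 under the DLD-1 label. Here RIP was the higher library in one label and Input in the other. These 3 genes held the first 3 places in each library except the RIP library labelled DLD-1, where SNHG6 stood with SNHG5.

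**Figure D1:**
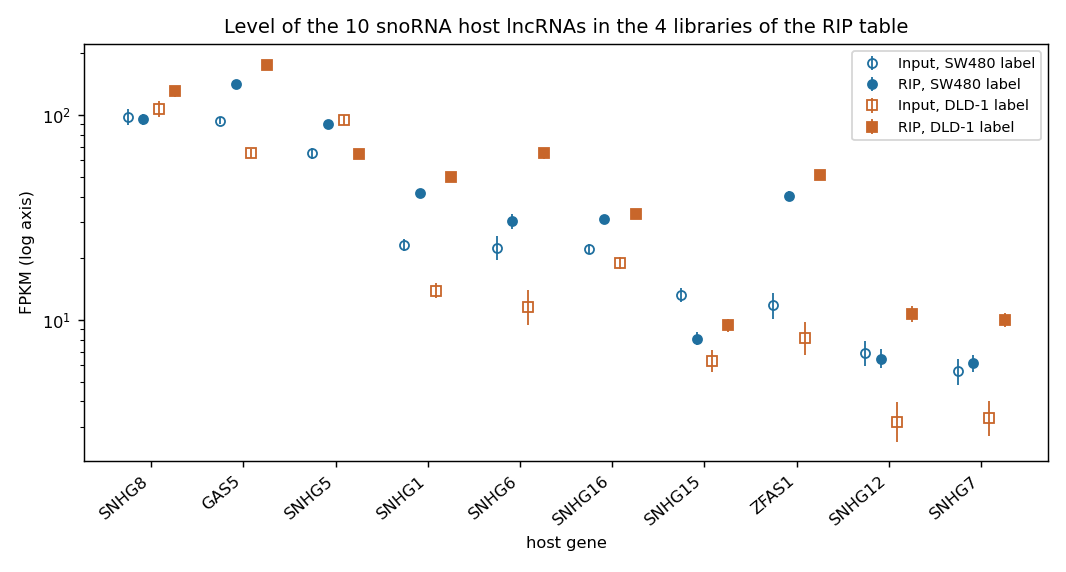
Level of each host lncRNA in FPKM (log axis) in the Input (open) and RIP (filled) libraries labelled SW480 (circles) and DLD-1 (squares), 1 library per point with its 95% counting interval. GAS5 ran from 65.1 to 175 FPKM, whereas SNHG7 and SNHG12 stayed between 3.19 and 10.7 FPKM.

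In the middle range were SNHG1, SNHG6, SNHG16 and ZFAS1. SNHG1, which hosts U22 and a row of further C/D snoRNAs, was at 41.5 FPKM in RIP and 23.2 in Input under the SW480 label and at 49.6 and 13.9 under the DLD-1 label. SNHG6, the host of U87, was at 30.3 and 22.5 FPKM under the SW480 label and at 65.0 and 11.5 under the DLD-1 label, so that the RIP library labelled DLD-1 stood apart from the other 3. SNHG16 was at 31.2 and 22.2 FPKM under the SW480 label and at 32.9 and 18.9 under the DLD-1 label, with nearly equal RIP levels. ZFAS1, transcribed next to and antisense of ZNFX1, was at 40.4 and 11.8 FPKM under the SW480 label and at 50.9 and 8.13 under the DLD-1 label. Both of its RIP values lay far above both Inputs.

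Lowest in both RIP libraries were SNHG15, SNHG12 and SNHG7. SNHG15 was at 8.10 FPKM in RIP and 13.2 in Input under the SW480 label and at 9.43 and 6.32 under the DLD-1 label, and its highest library was an Input. SNHG12 was at 6.47 and 6.87 FPKM under the SW480 label and at 10.7 and 3.19 under the DLD-1 label. SNHG7 was at 6.16 and 5.60 FPKM under the SW480 label and at 10.0 and 3.33 under the DLD-1 label, close to SNHG12 in each library. Several neighbours in the order could not be separated by their counting intervals. In the Input labelled SW480 these were SNHG8 and GAS5, then SNHG1, SNHG6 and SNHG16, then SNHG15 and ZFAS1, and last SNHG12 and SNHG7. In the Input labelled DLD-1 they were SNHG8 and SNHG5, each neighbouring pair from SNHG1 through SNHG6 and ZFAS1 to SNHG15, and SNHG7 and SNHG12. The median host was at 22.3 and 12.7 FPKM in the Inputs labelled SW480 and DLD-1, against 8.66 and 9.06 FPKM over all genes tested and 2.74 and 3.19 FPKM over the 875 lncRNA genes tested.

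Some host genes overlap other genes in RefSeq, and the sources do not say whether reads were counted by strand. GAS5 overlaps GAS5-AS1 and ZBTB37, SNHG6 overlaps MCMDC2, SNHG7 overlaps DIPK1B, and SNHG12 overlaps TRNAU1AP. Reads of such a neighbour on the other strand cannot be told apart from those of the host.

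To see how the host RNAs stood in the NAT10 pull-down, RIP was set over Input on the scale log2((RIP FPKM + 1) / (Input FPKM + 1)). Under the DLD-1 label 9 of 10 hosts were above Input, where 47.7% of all genes tested were, and 6 were at least 2-fold above, where 15.1% were. These 6 were ZFAS1, SNHG6, SNHG1, SNHG12, GAS5 and SNHG7. Under the SW480 label 7 of 10 were above Input against 52.4% of all genes, and 1, ZFAS1, was at least 2-fold above against 15.6%. No host was at least 2-fold below Input in either label, where 16.0% (SW480) and 19.2% (DLD-1) of all genes were. The median log2 ratio of the hosts was 0.44 under the SW480 label and 1.38 under the DLD-1 label, beside 0.05 and -0.05 over all genes tested and -0.69 and -1.07 over the 875 lncRNA genes tested. Fewer copies in the Input and more RNA in the pull-down enter such a ratio alike. No library of a control pull-down was among the samples. RNA bound by NAT10 and RNA recovered without it cannot be told apart by this ratio.

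ZFAS1 had the highest ratio of the hosts in both labels. It was 3.43-fold above Input under the SW480 label, a log2 ratio of 1.70 ± 0.11 (counting SE, from 1288 RIP and 185 Input reads), and 6.25-fold under the DLD-1 label, 2.51 ± 0.12 (1377 and 118 reads). These values lay above those of 95.4% and 98.8% of the genes tested. SNHG6 was 1.35-fold above Input under the SW480 label, log2 0.41 ± 0.11, and 5.63-fold under the DLD-1 label, log2 2.40 ± 0.14 (1061 and 101 reads). SNHG1 was 1.79-fold above Input under the SW480 label, log2 0.81 ± 0.05, and 3.57-fold under the DLD-1 label, log2 1.76 ± 0.06. GAS5 was 1.51-fold above Input under the SW480 label, log2 0.59 ± 0.03, and 2.69-fold under the DLD-1 label, log2 1.42 ± 0.04. For these 4 genes the counting intervals of the labels lay apart, with the DLD-1 label the higher.

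SNHG16 had log2 ratios of 0.48 ± 0.05 and 0.77 ± 0.05 under the SW480 and DLD-1 labels, above Input in both. SNHG7 had 0.12 ± 0.11 and 1.35 ± 0.12, so that it was within counting error of its Input in 1 label only. In the other 4 hosts the sign of the ratio changed with the label. SNHG12 had -0.07 ± 0.11 under the SW480 label and 1.48 ± 0.13 under the DLD-1 label, and SNHG8 had -0.04 ± 0.08 and 0.28 ± 0.08, the SW480 values of both being within counting error of 0. SNHG15 had -0.65 ± 0.07 and 0.51 ± 0.09. SNHG5 went the other way, with 0.47 ± 0.05 under the SW480 label and -0.54 ± 0.05 under the DLD-1 label.

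When the opposite Input was the base, the values of both RIP libraries drew together. The median gap between the labels was 0.98 on the log2 scale over the Input of the same label and 0.20 over the other, and it was smaller over the other Input in 9 of 10 hosts, SNHG8 being the exception. Over all genes tested the same medians were 0.76 and 0.28. For SNHG6 the log2 ratios became 1.32 (RIP labelled SW480) and 1.49 (RIP labelled DLD-1), for SNHG7 0.72 and 0.74, for SNHG12 0.83 and 0.58, and for GAS5 1.11 and 0.89. ZFAS1 stayed highest with 2.18 and 2.02. SNHG1 had 1.51 and 1.06, SNHG16 0.69 and 0.55, and SNHG8 -0.17 and 0.41. SNHG5 was near its Input with -0.06 and -0.01, both within counting error of 0. SNHG15 changed sign in both libraries, to 0.31 and -0.45.

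With these Inputs 8 of 10 hosts were above Input in each RIP library, against 50.9% (RIP labelled SW480) and 49.7% (RIP labelled DLD-1) of all genes. At least 2-fold above were ZFAS1, SNHG1, SNHG6 and GAS5, 4 hosts, in the RIP library labelled SW480, against 9.24% of all genes, and ZFAS1, SNHG6 and SNHG1, 3 hosts, in the RIP library labelled DLD-1, against 9.36%. The median was 0.78 and 0.66. ZFAS1 was thus the host at least 2-fold above Input in both libraries over either Input of the RIP table. With the acRIP-table Inputs as the base, brought to the median of the RIP table, ZFAS1 had 1.84 and 3.25 over the Input of the same label and 2.93 and 2.17 over the other. On that base SNHG5 had 1.91 and 0.44 over the Input of the same label and 0.92 and 1.44 over the other. Its 1.91 under the SW480 label lay above the ZFAS1 value. SNHG6 had 0.12 and 1.49 over the Input of the same label and 0.41 and 1.20 over the other. Its 1.49 under the DLD-1 label lay below SNHG1 with 1.75 and GAS5 with 1.88.

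**Figure D2:**
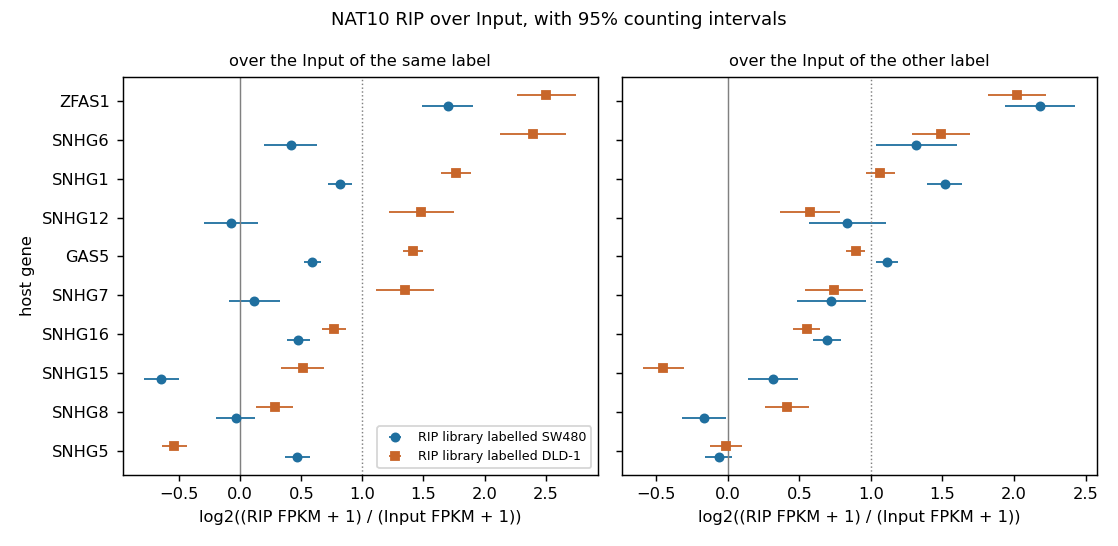
log2((RIP FPKM + 1) / (Input FPKM + 1)) of each host over the Input of the same label (left) and of the other label (right), for the RIP libraries labelled SW480 (circles) and DLD-1 (squares), with 95% counting intervals, a line at 0 and a dotted line at 1. On the left the median gap between circle and square is 0.98, and on the right 0.20.

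The level of the hosts in the Inputs was compared between the labels in both tables. As the RIP libraries did not pair with the Inputs of their own label, a direction by line cannot be given. Both tables hold values for the same labelled Input samples, yet these values differ. Whether they come from separate libraries is not given in the sources used here, so the tables do not count as replicates. By the RIP table, 8 of 10 hosts were higher in the Input labelled SW480, against 48.2% of all genes tested, but none by 2-fold or more on the log2(FPKM + 1) scale, against 7.25% higher and 9.29% lower over all genes. SNHG15 had the largest difference, log2 0.96 ± 0.09 (13.2 and 6.32 FPKM), then SNHG12 with 0.91 ± 0.15, SNHG6 with 0.90 ± 0.16 and SNHG1 with 0.70 ± 0.07. SNHG5 was lower in the Input labelled SW480, by a log2 ratio of -0.53 ± 0.06, and for SNHG8 the value was -0.13 ± 0.09.

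The Inputs of the acRIP table gave 7 of 10 hosts higher under the SW480 label, against 50.9% of all genes. Of them 1, ZFAS1, was higher by at least 2-fold, against 9.52%. The direction was the same in both tables for 9 of 10 hosts, and SNHG16 was the exception, with log2 0.22 in the RIP table and -0.03 in the acRIP table. SNHG15 had 0.93, SNHG1 0.74, GAS5 0.49 and SNHG5 -0.92 in the acRIP table, where the RIP table had 0.96, 0.70, 0.52 and -0.53. The levels themselves were lower in the acRIP table. SNHG5 was at 15.7 and 30.6 FPKM there, 0.241 and 0.325 of its RIP-table values under the SW480 and DLD-1 labels. SNHG6 under the DLD-1 label was at 14.6 FPKM, the single host value above that of the RIP table. The median share was 0.533 and 0.642 over the hosts and 0.670 and 0.645 over all genes tested.

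Between the RIP libraries the direction was the opposite. There 9 of 10 hosts were lower in the library labelled SW480 than in that labelled DLD-1, against 45.6% of all genes tested, and 1, SNHG6, by at least 2-fold, against 6.17%. SNHG6 had log2 -1.08 ± 0.07, SNHG12 -0.65 ± 0.09 and SNHG7 -0.62 ± 0.08, whereas SNHG5 had 0.48 ± 0.04. For 9 of 10 hosts the sign between the RIP libraries was opposite to that between the Inputs, as it was for 77.0% of all genes tested. SNHG8 was the host with the same sign in both. By arithmetic, opposite signs and a smaller gap over the opposite Input are the same fact, so this restates the count given above.

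ac4C peaks were called in 6 of the 10 hosts in SW480 and in 8 in DLD-1. Over all genes tested 44.2% (SW480) and 48.8% (DLD-1) had a peak, and over the lncRNA genes tested 8.91% and 8.0%, which lie at lower levels than the hosts, as given above. The list of SW480 held 9 host peaks in GAS5, SNHG6, SNHG12, SNHG15, SNHG16 and ZFAS1. The list of DLD-1 held 14 and added SNHG1 and SNHG5. SNHG7, among the lowest hosts, and SNHG8, among the highest but shortest with 336 bases of counted length, had no peak in either list or in the list of the pooled libraries, which held 11 host peaks in 7 hosts. All were annotated as exonic. Depth of the acRIP libraries is unknown, and the fold printed for a peak is the authors' ratio of acRIP over Input. Whether each acRIP library pairs with the Input of its own label was not tested. SW480 and DLD-1 therefore serve as names of the peak lists, and a difference in fold between them need not be one between the lines.

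**Figure D3:**
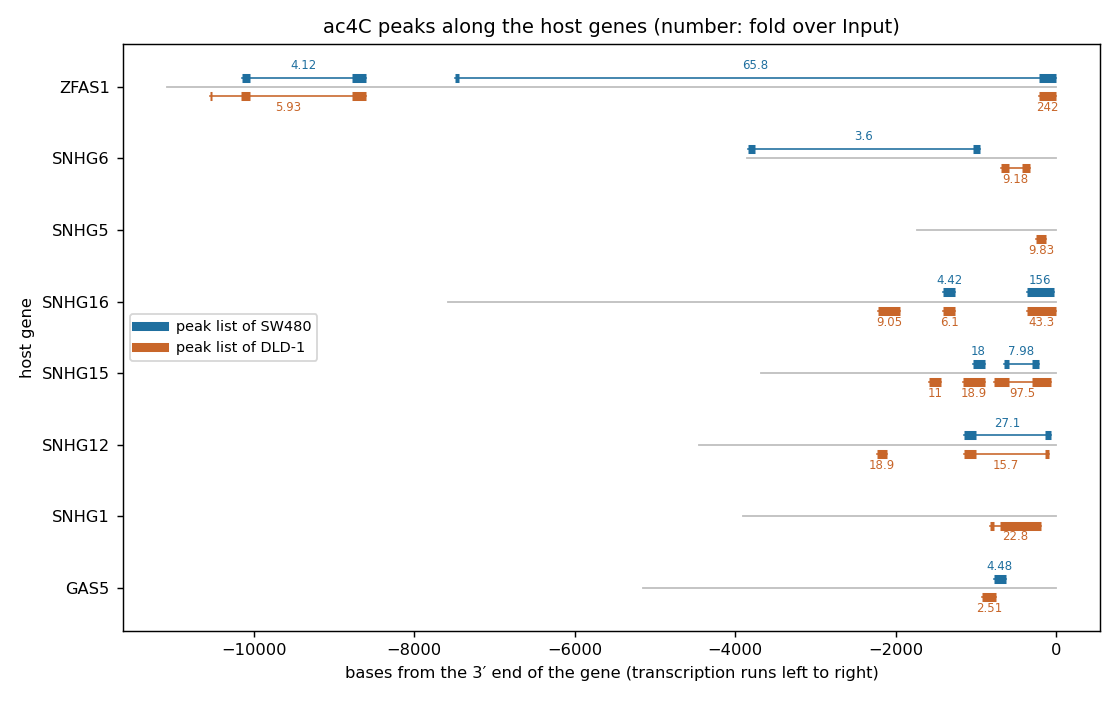
Host peaks by their distance in bases from the 3′ end of the RefSeq gene (grey line), in the lists of SW480 (upper, blue) and DLD-1 (lower, orange), with exonic blocks thick, the gap between blocks thin, and the fold over Input as a number. The peaks of highest fold, 242 in ZFAS1 and 156 in SNHG16, lie at the 3′ end.

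The tallest host peaks were terminal. In ZFAS1 a peak ended 1 base before the 3′ end of the gene in both lists, with a fold of 65.8 in SW480 and 242 in DLD-1 and listed p-values of 3.2e-73 and 6.3e-76 from the authors' peak caller, at chr20:49289050-49289259 on the plus strand in DLD-1, and it held no site of the 12-base pattern with evenly spaced cytosines. Its fold in DLD-1 lay above that of 98.5% of the peaks of the list. A second ZFAS1 peak over the exons near the 5′ end had a fold of 4.12 and 5.93 and 1 site. SNHG16 had its tallest peak in the last exon at chr17:76564989-76565348 (plus strand, as listed in DLD-1), with a fold of 156 in SW480 and 43.3 in DLD-1 and 2 sites of the pattern. A further SNHG16 peak at chr17:76563940-76564090 had identical bounds in both lists, with a fold of 4.42 and 6.1 and 1 site.

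SNHG15 had a peak at chr7:44983083-44983793 (minus strand) with a fold of 97.5 in DLD-1, and the SW480 peak inside it had a fold of 7.98. Its neighbour at chr7:44983913-44984182 had a fold of 18.9 in DLD-1 and 18.0 in SW480, with 1 site. In SNHG12 a peak with an end 60 bases (SW480) and 90 bases (DLD-1) from the 3′ end had a fold of 27.1 and 15.7. GAS5, the most abundant host in both RIP libraries, had a single weak peak per list, with a fold of 4.48 in SW480 and 2.51 in DLD-1, higher than 5.38% and 1.29% of the peaks of these lists. The peaks shared 31 bases. SNHG1 and SNHG5 had 1 peak each, in DLD-1, with a fold of 22.8 and 9.83. SNHG6 had a peak that began 11 bases from its 5′ end in SW480 (fold 3.6) and another 320 bases from its 3′ end in DLD-1 (fold 9.18), and these did not overlap.

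In all, 8 of the 9 host peaks of SW480 overlapped a host peak of DLD-1, and 8 of the 14 of DLD-1 one of SW480, in 5 genes. A distance of at most 100 bases from the 3′ end of the gene was found for 3 of 9 host peaks in SW480 and 4 of 14 in DLD-1, beside 20.5% and 11.0% of all peaks that lay inside a RefSeq gene of the same symbol and 14.5% and 14.0% of such lncRNA peaks. The nearer end was the 3′ end for 7 of 9 and 13 of 14, beside 89.0% and 81.2% of all such peaks and 63.2% and 71.3% of the lncRNA peaks. Sites of the pattern were in 4 of 9 and 7 of 14 host peaks, beside 56.2% and 55.1% of all peaks. The median fold of the host peaks was 7.98 in SW480 and 13.4 in DLD-1, beside 19.5 and 14.6 over all peaks.

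Most snoRNAs inside the hosts could not be read from the table. Of 37 listed, 17 matched 1 gene, 15 matched several genes of the same symbol and 5 matched none, and 13 of the 17 were listed at 0 in all 6 columns. Among the 17 matched to 1 gene, values above 0 were in ZFAS1, SNHG12 and SNHG16. SNORD12C, inside ZFAS1, was at 11.0 FPKM in RIP and 118 in Input under the SW480 label (29 and 154 reads) and at 25.4 and 93.2 under the DLD-1 label (57 and 112 reads). Both of its RIP values lay below both Inputs, while the spliced host lay above. Its log2 ratio was -3.31 ± 0.27 and -1.83 ± 0.23, which is 5.01 and 4.34 below that of ZFAS1, and with the opposite Input as the base it was -2.97 and -2.18.

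SNORD12B, in the same host, was at 20.0 and 69.2 FPKM under the SW480 label and at 44.9 and 35.0 under the DLD-1 label. Its log2 ratio was -1.74 ± 0.24 and 0.35 ± 0.26, which is 3.44 and 2.15 below the host. With the opposite Input as the base it was -0.78 and -0.61, so that the DLD-1 value changed sign. SNORD99 in SNHG12 had 7 to 36 reads and log2 ratios of -0.68 ± 0.62 and 0.76 ± 0.46, within counting error of 0, and -1.37 and 1.44 with the opposite Input. SNORD1B in SNHG16 had 0 and 5 reads in RIP and Input under the SW480 label and 1 and 2 under the DLD-1 label, too few for a ratio. The snoRNAs read here are 74 to 91 bases long by the recovered length, and whether the library preparation kept such RNAs equally in RIP and Input was not tested.

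**Figure D4:**
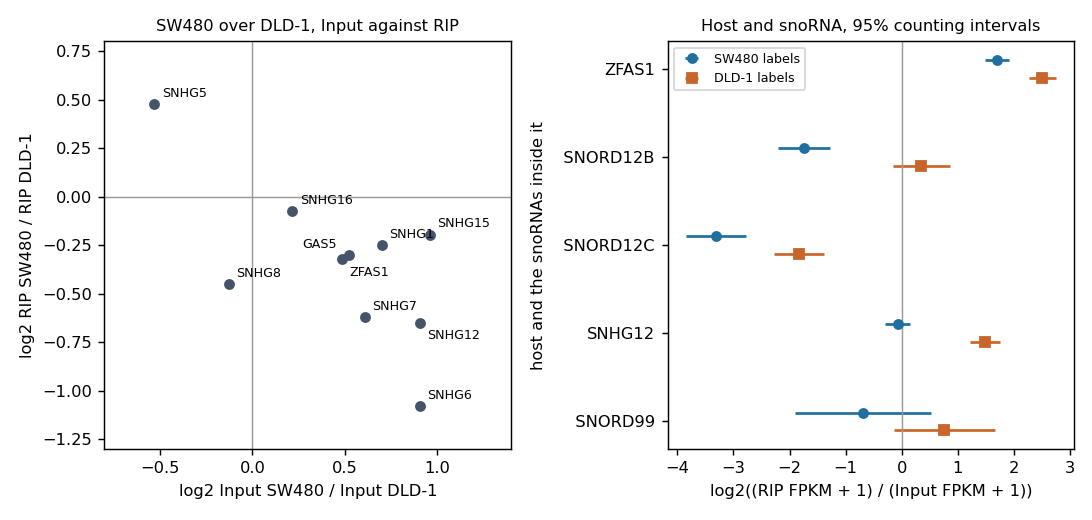
Left, log2 ratio of the libraries labelled SW480 over DLD-1 for each host in Input (x axis) and RIP (y axis), on log2(FPKM + 1). Right, log2((RIP FPKM + 1) / (Input FPKM + 1)) of the hosts ZFAS1 and SNHG12 and of the snoRNAs inside them, SW480 labels as circles and DLD-1 labels as squares, with 95% counting intervals, where SNORD12C lies at -3.31 and -1.83 and ZFAS1 at 1.70 and 2.51.

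Other hosts without a well-characterised protein were read from a list of 17, of which 12 passed the filter. Above Input were 8 of 12 under the SW480 label and 11 of 12 under the DLD-1 label, with medians of 0.18 and 0.84. At least 2-fold above were 1 and 4, and at least 2-fold below were 2 and 1, in the same order. Over all genes tested, 15.6% and 15.1% were 2-fold above and 16.0% and 19.2% were 2-fold below. With the opposite Input as the base, 8 and 9 of 12 were above, 3 and 3 at least 2-fold, and the medians were 0.60 and 0.40, so that the order of the labels turned. SNHG3, the host of U17, had log2 ratios of 0.74 and 2.34, C6orf48 0.89 and 2.08, LRRC75A-AS1 0.73 and 0.89, and EPB41L4A-AS1 1.56 and 1.26. These genes had, with the opposite Input, 1.43 and 1.64, 1.12 and 1.84, 0.64 and 0.99, and 1.28 and 1.54, in the same order. SNHG19 changed sign from -1.99 to 2.70, and it had 0.95 and -0.24 with the opposite Input as the base. SNHG17 had 0.06 and -1.49, and -0.63 and -0.80 with the opposite Input. SNHG26 had -1.20 and 0.72, and -0.25 and -0.22 with the opposite Input. DANCR was near its Input with 0.01 and 0.25, and had -0.09 and 0.35 with the opposite Input. Hosts that encode a protein, mostly ribosomal proteins and translation factors, had 15 of 31 above Input under the SW480 label and 26 of 31 under the DLD-1 label, with medians of -0.08 and 0.81. At least 2-fold above were 3 and 13 of 31, and at least 2-fold below were 3 and 0. Over the opposite Input 25 and 22 of 31 were above, with medians of 0.26 and 0.33. There 6 and 6 were at least 2-fold above, where 9.24% and 9.36% of all genes were, and 1 and 0 at least 2-fold below. Genes of nonsense-mediated decay had 3 and 2 of 10 above Input, with medians of -0.13 and -0.20, and 2 and 1 of 10 with the opposite Input as the base.

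The median pattern of the hosts over the 4 libraries was compared with that of all 10825 genes at or above 1 FPKM in each. The 5 genes with the smallest distance to the median profile of the hosts, on centred log2(FPKM + 1) over 4 libraries, were TUBA4A (0.06), HINT3 (0.06), SAMD5 (0.08), ATAD1 (0.08) and ITPRIPL2 (0.08). All encode proteins, and none is a snoRNA host in the lists used. The hosts themselves define the median profile, so a host can lie near it for that reason alone. Among the hosts GAS5 (0.17) and SNHG7 (0.22) lay nearest to that profile, and SNHG5 (1.36), ZFAS1 (1.21) and SNHG15 (1.04) farthest. The distances of GAS5 and SNHG7 stood at percentiles 0.43 and 0.97 among the genes. Those of SNHG5, ZFAS1 and SNHG15 stood at 63.3, 53.3 and 41.1, so the hosts did not all share the median pattern.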

How the data were processed

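There were 6 labelled libraries (Input, RIP and acRIP of SW480 and of DLD-1), 1 per group, so no test was made. The deposited RIP table holds FPKM of 58302 genes in 4 columns, and a table deposited with the acRIP data holds values for both Inputs, read as FPKM although its unit is not given in the sources used here. The submitters' processing notes name cutadapt 2.5, HISAT2 2.1.0 and GRCh38. The counting tool, its use of strand and the peak caller are not given in the sources used here. The ratio columns of the RIP table hold the authors' own RIP/Input comparison for protein-coding genes and were not used, and no per-sample column outside the 6 mapped ones was found (0 left out). In the deposited peak lists the authors give each peak a p-value, a fold over Input and a count of 12-base motif sites with cytosines at even spacing, called in each line and on pooled libraries. Starts in these lists count from 0 and were moved by 1 base.

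Here, log2((RIP FPKM + 1) / (Input FPKM + 1)) was computed, a scale on which differences between low values come out too small, for the 12324 genes that reached an FPKM of 1 in the Input of both labels. A gene counted as higher or lower from a fold of 2 on this scale. Whole reads were recovered from the steps of the RIP-table values for 99.99% of these genes within 0.02 reads plus rounding, after a test on simulated libraries, taking the smallest integers that fit. The 95% intervals from these reads (normal approximation for ratios, exact Poisson for levels) cover counting error only, since PCR copies are not independent molecules. The values of the acRIP table did not fall on these steps and have no interval. Genes were matched by symbol and snoRNAs only where 1 gene bore the symbol. Gene spans and start-site sequences are from RefSeq on GRCh38.p14. Peaks were shared where at least 1 base of their blocks overlapped on the same strand. The genes most like the members were the 5 with the smallest Euclidean distance to the members' median profile. The members, lists and motifs were chosen with earlier results of these data known. Python 3.11.15 with pandas 2.3.3 and scipy 1.17.1 was used.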

Additional observations from a re-analysis of the deposited data

Results flagged for a closer look

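4 hosts stood above Input under 1 label and below it under the other by their point values. For SNHG8 and SNHG12 the value under the SW480 label was within counting error of 0. With 1 library per group the difference was not tested. The log2 ratio of RIP over Input under the SW480 label minus that under the DLD-1 label was 1.01 for SNHG5, -0.32 for SNHG8, -1.56 for SNHG12 and -1.16 for SNHG15. With the opposite Input as the base these differences were -0.05, -0.58, 0.26 and 0.76.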

How the results depend on the processing

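No paired analysis was possible because no result comes from a test, each group holding 1 library, and a fit that takes the 2 lines as replicates was not made. No replicate could be left out. With the opposite Input as the base, the hosts at least 2-fold above Input numbered 4 (SW480 label) and 3 (DLD-1 label) in place of 1 and 6, and the medians were 0.78 and 0.66 in place of 0.44 and 1.38. SNHG5 under the SW480 label became -0.063, SNHG15 became 0.31 and -0.45, and the gap of SNHG12 to SNORD99 became 2.20 and -0.87 in place of 0.61 and 0.73. Over the Input of the acRIP table, 3 hosts were 2-fold above Input under the SW480 label with a median of 0.60, and SNHG5 under the DLD-1 label became 0.44. With the opposite Input of that table, an alternative chosen after seeing the data, the count under the SW480 label was 3, the medians were 0.62 and 1.16, SNHG15 became 0.021 and -0.70, and SNHG5 under the DLD-1 label became 1.44. Centring on protein-coding genes gave a median of 0.26 under the SW480 label. Between Inputs, 2 hosts were 2-fold higher in SW480 with a pseudocount of 0.1 and 1 with the Inputs of the acRIP table, in place of 0, and SNHG16 became -0.025 there. With peaks under the median p-value of their list, 3 (SW480) and 4 (DLD-1) hosts had a peak in place of 6 and 8, and with a fold of at least 10, 5 in DLD-1. The other 64 values of this kind stayed within their bounds (counts within 1.5 times, medians and gaps within counting error), and of 180 values of single hosts 14 had another sign than reported, 8 of them from a value beyond counting error of 0, and the others in SNHG7, SNHG8 and SNHG12 under the SW480 label. Beside these 8, 118 moved by less than counting error (2 of these with another sign) and 54 by more (4 with another sign). The causes were not tested. Counting error is the only error that these data give.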

Other observations

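Among the protein-coding hosts, TPT1, a growth-related TOP mRNA, and RPL30, a ribosomal protein mRNA, had the highest ratios of RIP over the RIP-table Inputs. TPT1 was at 629.8 and 70.4 FPKM in RIP and Input under the SW480 label and at 666 and 62.7 under the DLD-1 label, with log2 ratios of 3.14 and 3.39, and of 3.31 and 3.22 with the opposite Input. With the scaled Inputs of the other table its ratios were 1.29 and 1.38. RPL30 had 2.31 and 3.86 over the Inputs of the RIP table, 3.02 and 3.15 with the opposite Input, and 2.53 and 3.67 over the scaled ones.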
